A study of Mus musculus with 47 samples.

Results

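The change in muscle stem cells across the light phase was read from mice on the control diet collected at zeitgeber time 8 (ZT8) and at ZT0, with mice collected at ZT4 as a midpoint. Zeitgeber time counts the hours since the lights went on. The groups were chosen by the sample titles alone and hold 8 of the 47 mice of the study, 4 at ZT8 and 4 at ZT0, besides the 4 midpoint mice. Muscle stem cells, or satellite cells, lie between the muscle fibre and its basement membrane and rebuild muscle after injury. All mice of the study were female, of strain C57B6/J and with no mutation named in the labels. From 8 weeks of age they ate a control diet or a high-fat diet freely for 7 weeks and were sampled at 15 weeks, and the ZT8, ZT4 and ZT0 groups described here all had the control diet. RNA of the stem cells of each mouse was measured on 1 Affymetrix array, so the mice are separate biological replicates (n = 4 per group unless stated). All mice of a time point were collected on a single day, and each time point had a day of its own. Time of day and collection day therefore cannot be told apart in any difference between times within the diet.

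Values are log2 expression values as deposited, on which a difference of 1 is a doubling. A gene is called changed where limma's test gave a Benjamini-Hochberg adjusted p under 0.05 over the 10258 genes tested. Values after ± are standard errors from limma. The 12 control arrays of ZT0, ZT4 and ZT8 correlated with each other at 0.954 to 0.988 across genes, and their medians lay between 5.89 and 5.94. The median SD of a gene within a group was 0.148 at ZT8 and 0.158 at ZT0. The 3' minus 5' difference of the Gapdh control probe sets, a sign of RNA quality, ran from -0.22 to -0.10 in ZT8 mice, against -0.13 to 0.01 in ZT0 mice. Its part in the differences below was not tested.

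The stem cell label fitted the markers in part. Averaged over all arrays, Pax7 (10.9), Myf5 (10.6), Sdc4 (12.3), Itga7 (9.67), Vcam1 (9.28) and Cdh15 (8.28) were well above the array's background, whose median over 23 non-specific control probe sets was 3.89. Myod1, the factor that marks myogenic cells entering activation, also stood at 11.4. The immune markers Ptprc (3.85) and Itgam (3.99), the myofibre myosin Myh4 (4.50) and the fibro-adipogenic receptor Pdgfra (4.37) lay near background. The myofibre genes Acta1 (6.53) and Ckm (6.01) were above the level filter of 5.80, Acta1 with 5.73 to 6.58 in ZT8 mice and 5.56 to 7.70 in ZT0 mice. The connective tissue genes Dcn (10.2) and Col1a1 (9.31), the macrophage marker Cd68 (8.63) and the endothelial genes Cdh5 (6.92) and Pecam1 (6.72) were also above that filter. The endothelial gene Kdr (5.19) was under it. In bulk RNA, fewer cells of a type and less RNA per cell cannot be told apart.

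The circadian clock is a feedback loop inside the cell. The activators BMAL1 (Arntl), CLOCK and NPAS2 bind E-boxes in DNA and switch on the Period and Cryptochrome genes, whose proteins then shut the activators off. A second loop of REV-ERB repressors (Nr1d1 and Nr1d2) and ROR activators acts on ROR elements, and the PAR-bZIP factors DBP, TEF and HLF, opposed by NFIL3, pass the rhythm on through D-boxes. In many mouse tissues Npas2 and Arntl are high near dawn, and the REV-ERB and DBP group is high in the later light phase.

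Between ZT0 and ZT8 the level of 1073 genes changed, which is 10.5% of the 10258 tested. Of these, 654 (6.38%) were higher and 419 (4.08%) lower at ZT8. At an unadjusted p under 0.05 there were 2524 (24.6%). Most changes were small, with a median size of 0.49 among the called genes and 0.14 over all genes, and the median signed difference over all genes was 0.02. At least 1.5-fold were 230 of the higher and 134 of the lower genes, and at least 2-fold 33 and 18. The 4 ZT8 values and the 4 ZT0 values did not overlap for 1620 genes (15.8%), of which 850 (8.29% of all genes) were also called.

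Of 28 clock genes on the array 26 passed the level filter, and 13 of them were called, 7 higher and 6 lower at ZT8, beside 10.5% of all genes. Their median absolute difference was 0.35, beside 0.14 over all genes. For 12 of the 13 the ZT8 and ZT0 mice did not overlap, the exception being Ciart, beside 850 of all 1073 called genes. Rorb and Fbxl21 lay under the level filter and were not tested. The 26 genes include Lonrf3 and Tspan4, both called and neither named in the loops described above. The clock list was chosen with earlier results of these data known, so its share called is not an independent result.

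Promoter sequences of 5 called clock genes are shown, because they hold, in the 250 bases before the transcription start, elements through which the loops described above are known to act. The motifs searched were CACGTG for the E-box, which reads the same on both strands, TTATGTAA for the D-box and AGGTCA for the core of the ROR element, each of these searched on both strands. Coordinates and letters are RefSeq's on build GRCm38.p6, written 5′ to 3′ along the gene's strand, and capitals mark the motif. Per3 holds 2 copies of the D-box, the farther one 205 bases before its start. Cry1, Bhlhe41 and both starts of Tef hold an E-box, and Nr1d2 holds the ROR core. Of the other called clock genes, not shown, Ciart holds 3 E-boxes, Lonrf3 and 1 start of Tspan4 hold an E-box, and Nfil3 holds the ROR core. The entries of Npas2, Rora, Dbp and Usp2 hold none of these letters.
Per3, chr4:151044666-151044915, minus strand: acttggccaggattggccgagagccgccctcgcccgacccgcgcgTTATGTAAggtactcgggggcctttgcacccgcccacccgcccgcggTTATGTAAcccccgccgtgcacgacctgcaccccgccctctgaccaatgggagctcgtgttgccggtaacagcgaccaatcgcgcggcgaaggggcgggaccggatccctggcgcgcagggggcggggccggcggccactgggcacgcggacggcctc
Cry1, chr10:85185055-85185304, minus strand: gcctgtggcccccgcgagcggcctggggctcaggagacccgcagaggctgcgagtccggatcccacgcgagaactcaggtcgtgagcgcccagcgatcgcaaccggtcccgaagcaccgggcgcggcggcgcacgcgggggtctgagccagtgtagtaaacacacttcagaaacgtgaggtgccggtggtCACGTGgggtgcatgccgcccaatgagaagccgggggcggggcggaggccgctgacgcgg
Bhlhe41, chr6:145865421-145865670, minus strand: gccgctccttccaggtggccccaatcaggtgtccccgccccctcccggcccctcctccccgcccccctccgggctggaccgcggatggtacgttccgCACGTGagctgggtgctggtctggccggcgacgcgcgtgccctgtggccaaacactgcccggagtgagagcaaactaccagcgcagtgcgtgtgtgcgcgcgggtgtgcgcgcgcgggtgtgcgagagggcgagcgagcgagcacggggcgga
Tef, first start, chr15:81802423-81802672, plus strand: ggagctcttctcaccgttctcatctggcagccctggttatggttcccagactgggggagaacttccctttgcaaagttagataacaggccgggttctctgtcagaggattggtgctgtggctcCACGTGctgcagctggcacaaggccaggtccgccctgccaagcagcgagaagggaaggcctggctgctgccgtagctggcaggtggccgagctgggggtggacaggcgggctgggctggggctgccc
Tef, other start, chr15:81811164-81811413, plus strand: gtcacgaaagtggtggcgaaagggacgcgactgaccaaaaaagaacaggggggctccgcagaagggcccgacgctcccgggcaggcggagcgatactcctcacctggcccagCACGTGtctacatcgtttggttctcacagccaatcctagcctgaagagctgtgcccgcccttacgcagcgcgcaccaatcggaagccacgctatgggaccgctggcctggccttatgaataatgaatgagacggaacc
Nr1d2, chr14:18239107-18239356, minus strand: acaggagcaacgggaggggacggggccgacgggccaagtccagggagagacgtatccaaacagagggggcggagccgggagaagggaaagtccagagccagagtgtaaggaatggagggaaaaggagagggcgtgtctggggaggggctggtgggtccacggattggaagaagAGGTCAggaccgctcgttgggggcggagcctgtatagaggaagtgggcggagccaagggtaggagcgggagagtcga

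Over windows from 250 bases before to 50 after each start, 22 of the 26 clock genes had an entry, of which 7 held the E-box, 2 the D-box and 5 the ROR core. The E-box was found in 7.15% of all 32851 promoters and in 12.03% of the 8282 tested genes with an entry, beside 12.52% of the genes higher at ZT8 and 12.95% of the lower ones. The D-box was found in 0.94% of all promoters and 0.62% of the tested genes, beside 0.58% of the higher and 0.3% of the lower ones. The ROR core was found in 16.26% of all promoters and 15.09% of the tested genes, beside 13.29% of the higher and 13.55% of the lower ones. A gene was counted where any of its starts held the motif, so the shares of promoters and of genes are unlike measures. A match describes the letters and not a bound site.

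Among the activators, Npas2 fell the most. Npas2, which pairs with BMAL1 in place of CLOCK, stood at 7.51, 7.47, 7.54 and 7.39 in ZT8 mice, against 8.46, 8.66, 8.57 and 8.45 in ZT0 mice. The groups did not overlap, and the ZT4 mice lay between them at 7.79 to 8.03. The difference was -1.06 ± 0.10 (adjusted p = 1.55e-09), a 2.08-fold fall, and a dimmer probe set of the gene differed by -2.70. Rora, which activates Arntl through ROR elements, fell by 0.24 (adjusted p = 0.0247). Its call was lost without ZT8 mouse 2 or 3 or ZT0 mouse 4 (adjusted p = 0.0661 to 0.0837), and 1 of its 4 further probe sets did not fall (0.01). Clock did not pass, with 7.77, 7.35, 7.73 and 7.82 at ZT8 against 8.13, 8.16, 8.16 and 8.33 at ZT0 (-0.53 ± 0.18, adjusted p = 0.0508), although no ZT8 mouse reached a ZT0 mouse. Clock passed in 5 of 18 alternative settings, with the smallest adjusted p (0.000459) for the mean of its probe sets, and its 3 further probe sets gave -0.94, -1.04 and 0.04. Arntl differed by -0.37 ± 0.33 (adjusted p = 0.523) with wide scatter between mice. A dimmer Arntl probe set gave -0.95, and the mean of both passed (-0.66, adjusted p = 0.0233). Arntl2 differed by 0.16 (adjusted p = 0.257).

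The repressors moved in both directions. Per3, a Period protein, stood at 8.20, 7.48, 8.01 and 8.20 in ZT8 mice, against 6.79, 6.34, 6.11 and 6.63 in ZT0 mice. No values overlapped, and the difference was 1.502 ± 0.27 (adjusted p = 0.000295), while 3 further probe sets above the filter gave 0.29 to 0.60. Nr1d2, the REV-ERB beta repressor whose promoter carries the ROR core shown above, stood at 10.19, 9.70, 9.95 and 10.04 at ZT8 against 9.10, 8.90, 8.98 and 9.08 at ZT0. It rose by 0.95 ± 0.13 (adjusted p = 7.46e-06), and the ZT4 mice (9.63 to 9.90) were already clear of every ZT0 mouse. Bhlhe41, the E-box repressor DEC2, rose by 0.62 ± 0.11 (adjusted p = 0.000246), with 6.85 to 7.26 in ZT8 mice and 6.26 to 6.72 in ZT0 mice. Ciart, a repressor of the activator pair, rose by 0.33 (adjusted p = 0.0456), but the groups overlapped and the call was lost without any of ZT8 mice 1, 3 and 4 or ZT0 mice 1, 3 and 4 (adjusted p = 0.0502 to 0.231).

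Cry1, the Cryptochrome repressor with an E-box 60 bases before its start, took a course with a trough. It read 7.50, 7.49, 7.36 and 7.39 at ZT0, then 6.25, 6.60, 6.34 and 6.39 at ZT4, then 7.02, 6.82, 6.84 and 6.96 at ZT8, with no overlap between any of the times. ZT4 was 1.04 below ZT0 (difference -1.04 ± 0.12, adjusted p = 2.56e-07), ZT8 was above ZT4 by 0.51 (adjusted p = 0.00772), and ZT8 was still below ZT0 (-0.53 ± 0.12, adjusted p = 0.00292). These 3 differences share mice. Per2 had a trough of the same kind that closed by ZT8. It differed by -0.57 at ZT4 from ZT0 (adjusted p = 0.0158), by 0.65 at ZT8 from ZT4 (adjusted p = 0.0114), and by 0.08 ± 0.16 at ZT8 from ZT0 (adjusted p = 0.804). Nfil3, which opposes DBP at D-boxes, fell by 0.22 at ZT8 from ZT0 (adjusted p = 0.0303). That call was lost without ZT8 mouse 1 or 3 or ZT0 mouse 2 or 4 (adjusted p = 0.0543 to 0.185). Per1 (-0.36, adjusted p = 0.0802), Cry2 (0.20, adjusted p = 0.582) and Bhlhe40 (-0.07, adjusted p = 0.745) did not pass, though Per1 passed in 2 of 18 alternative settings (smallest adjusted p = 0.0452).

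Of the output factors, the D-box activators led. Dbp stood at 8.82, 8.55, 8.68 and 7.95 in ZT8 mice, against 6.61, 7.15, 6.96 and 7.23 in ZT0 mice, with no overlap (1.51 ± 0.19, adjusted p = 1.82e-06, 2.85-fold). The ZT4 mice, at 7.23 to 8.07, overlapped both groups. Tef, a related factor with an E-box before both of its starts, stood at 8.79, 8.51, 8.72 and 8.71 at ZT8 and at 8.10, 7.74, 7.74 and 8.00 at ZT0 (0.79 ± 0.10, adjusted p = 2.72e-06). The third PAR-bZIP factor, Hlf, gave 0.18 ± 0.15 (adjusted p = 0.46). Its dimmer probe set gave 0.55, and the mean of both passed (0.37, adjusted p = 0.0312). Tspan4, a tetraspanin membrane protein, rose by 0.83 ± 0.15 (adjusted p = 0.000268). In the other direction, the deubiquitinase Usp2 stood at 9.03, 8.69, 8.88 and 9.03 in ZT8 mice against 9.40, 9.60, 9.47 and 9.52 in ZT0 mice (-0.59 ± 0.08, adjusted p = 3.19e-06). Lonrf3 fell by 0.55 ± 0.12 (adjusted p = 0.00271). Noct, Wee1, Csnk1d, Csnk1e and Timeless did not pass, with differences from -0.31 to 0.28.

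**Figure D1:**
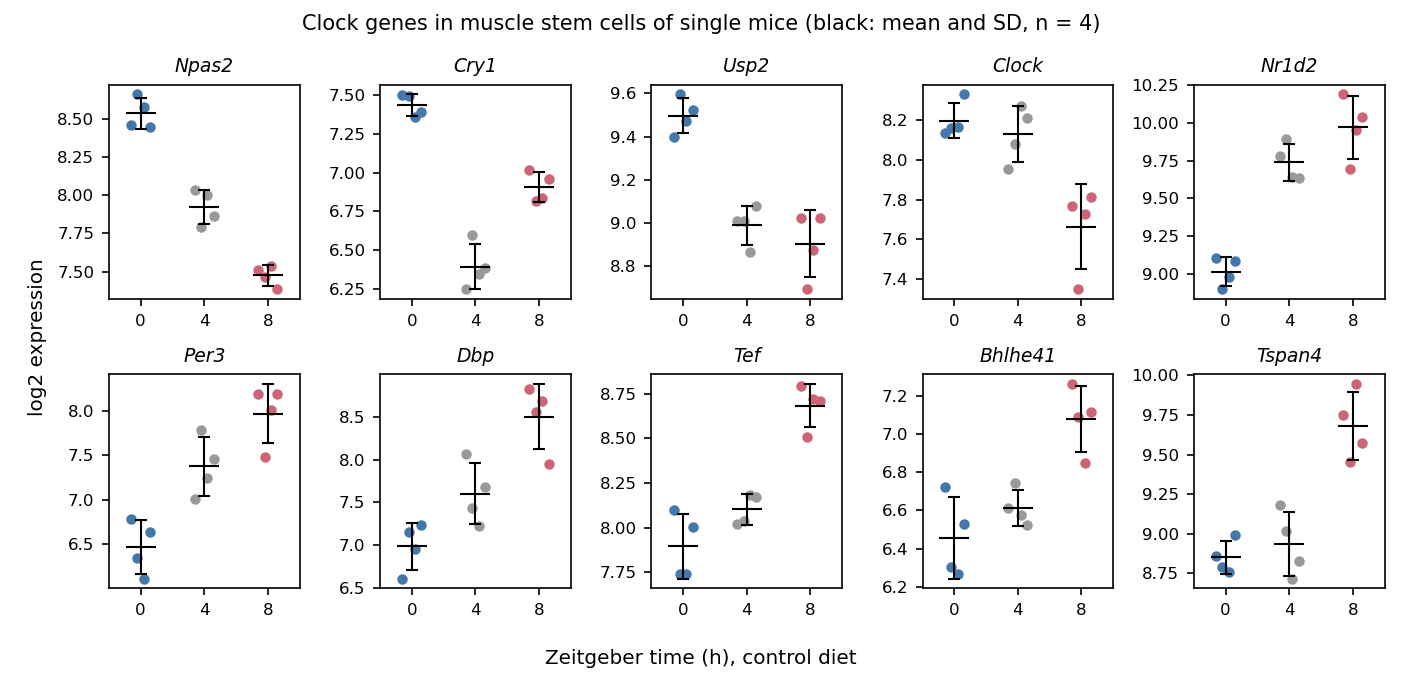
Log2 expression of clock genes in each control-diet mouse against zeitgeber time in hours, with the mean and SD of 4 mice in black. All genes shown except Clock were called at ZT8 against ZT0. Npas2 is lower and Dbp, Per3 and Nr1d2 are higher in every ZT8 mouse than in every ZT0 mouse, and Cry1 is lowest in the ZT4 mice (6.25 to 6.60).

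Outside the clock, the largest rise was read by a probe set of Sphk2, a kinase that makes the signalling lipid sphingosine 1-phosphate. It stood at 9.77, 9.43, 9.74 and 9.36 in ZT8 mice, against 7.15, 6.84, 6.46 and 7.23 in ZT0 mice, a 6.29-fold difference (2.65 ± 0.18, adjusted p = 8.42e-14), and the ZT4 mice at 8.61 to 8.95 lay between. Sphk2 and Dbp overlap on opposite strands in the GRCm38.p6 annotation, and the labelled cDNA came from cycles of amplification that copy both strands, so the source of this signal is uncertain. A second, dim probe set of Sphk2 differed by -0.24. None of the other 4 tested genes of the sphingosine phosphate pathway was called, Sphk1 differing by 0.14 (adjusted p = 0.732).

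Spata4, known for its expression in testis, rose by 2.05 ± 0.31 (adjusted p = 3.05e-05), with 6.72 to 7.54 at ZT8 against 4.74 to 5.48 at ZT0, under the level filter. Mirg, a non-coding RNA of the imprinted Dlk1-Dio3 region, rose by 1.57 ± 0.24 (adjusted p = 3.31e-05). Zbtb16, a zinc finger factor known to respond to glucocorticoids, was 9.68, 9.13, 9.02 and 9.69 at ZT8 and 8.84, 7.11, 8.17 and 7.92 at ZT0 (1.37 ± 0.26, adjusted p = 0.000603). At ZT4 against ZT0 it had given -0.24 (adjusted p = 0.619). Adamts20, a secreted metalloprotease, rose by 1.33, and Arc, known as an activity-regulated gene of neurons, by 1.25. The transcripts 4632427E13Rik (1.29, its ZT0 mean of 5.40 under the filter) and 6430548M08Rik (1.26) rose as well. Igha, an immunoglobulin heavy chain gene, rose by 1.25 ± 0.26 (adjusted p = 0.00126), while the immune list as a whole had no member called and its mean level was 6.80 to 7.02 at ZT8 against 7.09 to 7.24 at ZT0. The part of immune cells in the Igha value was not tested.

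Among the largest falls, Cpt1a, the gate of fatty acids into mitochondria, stood at 8.03, 8.47, 8.11 and 8.05 in ZT8 mice against 9.09, 9.41, 9.27 and 9.42 in ZT0 mice (-1.13 ± 0.14, adjusted p = 1.17e-06). The ZT4 mice (9.07 to 9.55) overlapped those of ZT0. Mrln, a small protein that inhibits the calcium pump of muscle, was 7.10, 7.30, 7.52 and 7.37 at ZT8 and 8.44, 8.53, 8.80 and 8.13 at ZT0 (-1.15 ± 0.17, adjusted p = 1.44e-05), and its ZT4 mice (8.22 to 8.88) overlapped those of ZT0. Lox, which crosslinks collagen, fell by 1.21 ± 0.29 (adjusted p = 0.00568). Topors, a ubiquitin and SUMO ligase, gave -1.06 (adjusted p = 3.97e-05), Tubgcp3, a part of the gamma-tubulin complex, -1.10 (adjusted p = 5.28e-05), and Wbp1l -1.05 (adjusted p = 6.01e-06). Ppip5k1, an inositol pyrophosphate kinase, fell by 1.40, Ppp3r1, the regulatory subunit of calcineurin, by 1.38, and Schip1 by 1.15. The ZT8 means of Ppip5k1 (4.97) and Ppp3r1 (5.77) were under the filter. The largest fall was that of Thbs4, a matrix glycoprotein (-1.71 ± 0.47, adjusted p = 0.0152), which was lost without ZT8 mouse 1 or ZT0 mouse 1 (adjusted p = 0.0537 and 0.0519). That of Aplp1 (-1.24, adjusted p = 0.0147) was lost without ZT8 mouse 2 or ZT0 mouse 2 (adjusted p = 0.0642 and 0.0663).

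**Figure D2:**
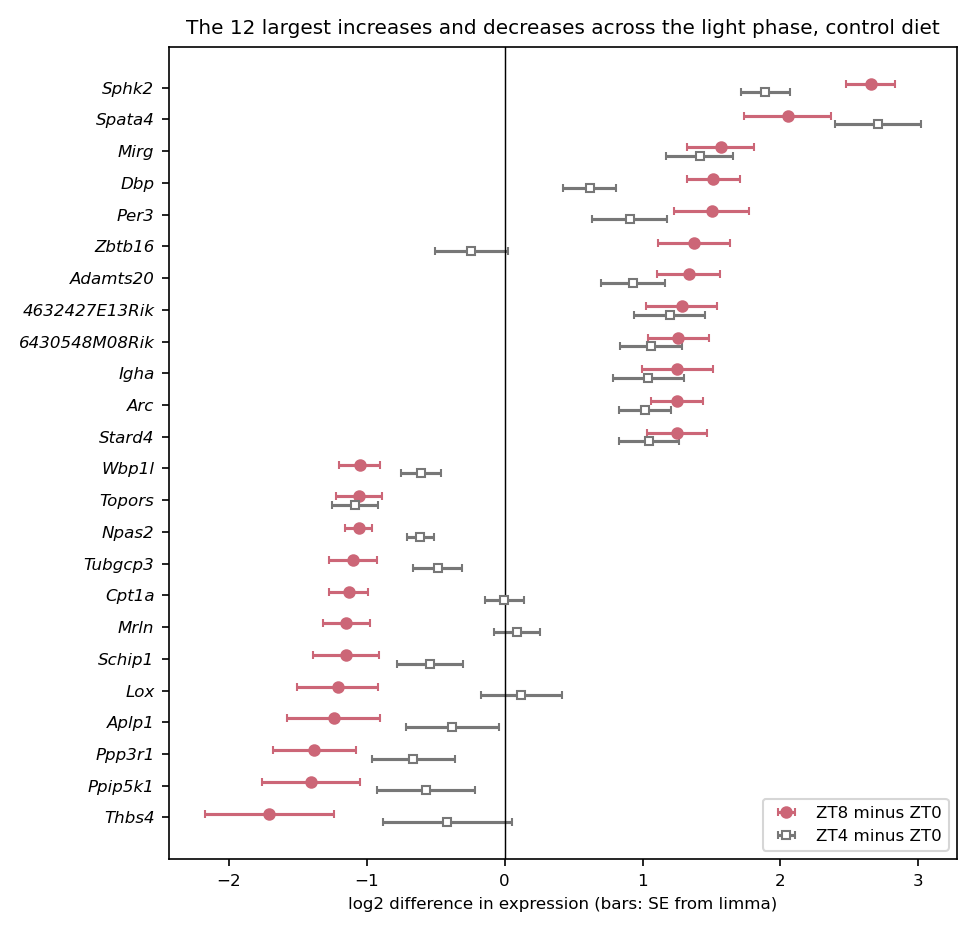
The 12 largest increases and 12 largest decreases, ZT8 minus ZT0 on the control diet, as log2 difference with the standard error from limma, among called genes whose 4 ZT8 and 4 ZT0 mice did not overlap. Sphk2 at 2.65 and Spata4 at 2.05 stand above the other increases, and Thbs4 at -1.71 is the largest decrease.

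The ZT4 mice show when in the interval a gene moved. From ZT0 to ZT4, 1182 genes (11.5%) were called, 631 (6.15%) higher and 551 (5.37%) lower at ZT4. From ZT4 to ZT8 there were 573 (5.59%), of which 322 (3.14%) were higher and 251 (2.45%) lower at ZT8. The steps share the ZT4 mice, and each shares mice with the whole interval. Spata4 (2.71), Sphk2 (1.89) and Zdhhc24, a member of the palmitoyltransferase family (1.57), had the largest increases of the earlier step. Zdhhc24, with a ZT0 mean of 5.51 under the filter, still rose over the whole interval by 1.11 (adjusted p = 0.0245), a call lost without ZT8 mouse 2 or 4 or ZT0 mouse 1 or 4 (adjusted p = 0.0686 to 0.116). The largest decreases of that step were Akr1c14, a hydroxysteroid dehydrogenase (-1.67), Olfm2 (-1.57) and the corepressor Bcorl1 (-1.35), none of which was called at ZT8 against ZT0. Bcorl1 read 8.18 to 8.57 at ZT0, 6.61 to 7.19 at ZT4 and 7.60 to 8.31 at ZT8. A second probe set of Bcorl1 gave -1.21 at ZT8 against ZT0, and the mean of both passed there (-0.79, adjusted p = 3.14e-05). The later step had its largest increases in Zbtb16 (1.62), Olfm2 (1.41) and the carbonic anhydrase Car12 (1.40), and its largest decreases in Col1a1 (-1.87), D230025D16Rik (-1.71, its ZT8 mean of 5.17 under the filter) and Fn1 (-1.40).

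Of 13 tested enzymes of cholesterol synthesis 4 were higher at ZT8 and none lower, with a median difference of 0.47 and 12 of 13 differences above 0, beside 6.38% higher, 4.08% lower and a median of 0.02 over all genes. Idi1, the isomerase of the isoprenoid unit, stood at 9.52, 9.23, 9.37 and 9.76 in ZT8 mice against 8.68, 8.31, 8.57 and 8.64 in ZT0 mice (0.92 ± 0.23, adjusted p = 0.00775). Fdft1, or squalene synthase, stood at 7.91, 7.51, 8.04 and 8.35 at ZT8 against 7.24, 7.17, 6.85 and 7.21 at ZT0 (0.84 ± 0.18, adjusted p = 0.00227). Neither gene had overlapping groups. Msmo1, a sterol oxidase, rose by 0.68 (adjusted p = 0.000838) and had done so by ZT4 (0.79, adjusted p = 0.000132). Cyp51, the lanosterol demethylase, rose by 0.50 (adjusted p = 0.026), a call lost without any of ZT8 mice 1, 3 and 4 or ZT0 mice 1 and 3 (adjusted p = 0.0566 to 0.0827). Without ZT8 mouse 2, 7 of the 13 enzymes were called.

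Of 10 tested genes of sterol uptake and sensing, 4 were higher and none lower, with a median of 0.22. Over all genes 6.38% were higher and 4.08% lower. Stard4, which carries cholesterol between membranes, stood at 8.74, 8.64, 8.82 and 9.04 in ZT8 mice against 7.53, 7.60, 7.33 and 7.79 in ZT0 mice, with no overlap (1.25 ± 0.22, adjusted p = 0.000206), and its ZT4 mice (8.45 to 8.72) were already high. Srebf2, the transcription factor that drives cholesterol synthesis, rose by 0.44 (adjusted p = 0.0218), Mylip, a ligase that removes the LDL receptor, by 0.41 (adjusted p = 0.0159), and Insig1, which holds SREBP back, by 0.38 (adjusted p = 0.0127). These 3 calls depended on single mice. Srebf2 was lost without ZT8 mouse 1 or 4 or ZT0 mouse 2 or 3 (adjusted p = 0.0506 to 0.0819), Mylip without ZT8 mouse 3 or ZT0 mouse 2 (adjusted p = 0.0566 and 0.1), and Insig1 without ZT8 mouse 1 (adjusted p = 0.0698). Of the 10 genes, 2 were called without ZT8 mouse 1 or without ZT0 mouse 2.

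Over all genes 6.38% were higher and 4.08% lower. Of 16 tested genes of fatty acid synthesis 3 were higher and none lower, with a median of 0.22. Fasn, the fatty acid synthase, rose by 0.47 ± 0.11 (adjusted p = 0.0033), with 9.22 to 9.51 in ZT8 mice and 8.69 to 9.10 in ZT0 mice. Acaca, which makes malonyl-CoA, rose by 0.52 (adjusted p = 0.0151) and Thrsp, a lipogenic regulator, by 0.92 (adjusted p = 0.0137). Those calls were lost without ZT0 mouse 2 (adjusted p = 0.0605) and without ZT8 mouse 2 (adjusted p = 0.0805). Of 24 tested genes of fatty acid oxidation and PPAR targets 1 was higher and 3 were lower, with a median of -0.01. Beside Cpt1a, its partner Cpt2 fell by 0.48 ± 0.10 (adjusted p = 0.00138), with 5.46 to 5.93 at ZT8 and 6.14 to 6.35 at ZT0, partly under the level filter of 5.80. Angptl4, an inhibitor of lipoprotein lipase, fell by 0.65 (adjusted p = 0.0255), but the groups overlapped, a second probe set read 0.20, and the call was lost without ZT8 mouse 1, 2 or 3 or ZT0 mouse 2 (adjusted p = 0.0516 to 0.221). Pdk4, which slows glucose oxidation, rose by 0.47 ± 0.10 (adjusted p = 0.00186). Of 17 glycolysis genes, Pfkl, the liver-type phosphofructokinase, fell by 0.65 ± 0.13 (adjusted p = 0.0013), while Aldoa rose by 0.21 (adjusted p = 0.00821), lost without ZT0 mouse 1 (adjusted p = 0.053), and Tpi1 by 0.34 (adjusted p = 0.0232), lost without ZT8 mouse 3 or ZT0 mouse 2 (adjusted p = 0.0965 and 0.0942).

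**Figure D3:**
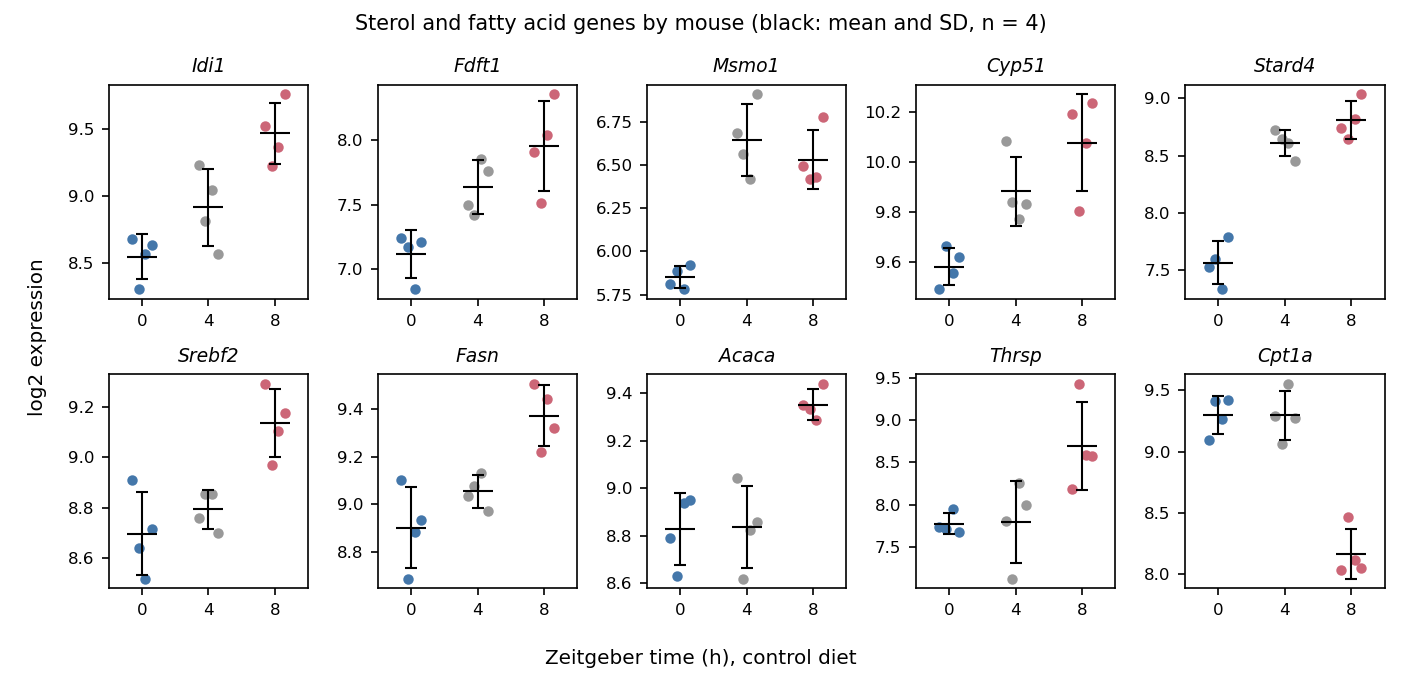
Log2 expression of sterol and fatty acid genes in each control-diet mouse against zeitgeber time in hours, with the mean and SD of 4 mice in black. Stard4 and Idi1 are higher, and Cpt1a is lower, in all ZT8 mice than in all ZT0 mice, and Cpt1a in the ZT4 mice is at 9.07 to 9.55.

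The shares called over all genes were 6.38% higher and 4.08% lower. Of 78 tested subunits of oxidative phosphorylation 11 were higher and 1 lower (median 0.13), among them the complex I subunits Ndufb9 (0.49, adjusted p = 0.0055) and Ndufc2 (0.48, adjusted p = 0.00158). Without ZT8 mouse 3 there were 5, and without ZT8 mouse 4 there were 7. Of 70 cytosolic ribosomal proteins 12 were higher and none lower (median 0.08), Rpl34 for one at 12.16 to 12.21 in ZT8 mice with no overlap with the ZT0 mice (0.12 ± 0.03, adjusted p = 0.00183). That count was 5 without ZT8 mouse 1, 7 without ZT0 mouse 2 and 6 without ZT0 mouse 3, 7 after cyclic loess and 3 without a trend in eBayes. Of 42 proteasome genes 6 were higher and none lower (median 0.15), led by the immunoproteasome subunit Psmb8 (0.80, adjusted p = 0.00615) and the core subunit Psmb7 (0.69, adjusted p = 0.00391). The proteasome count was 3 without ZT8 mouse 1, 2 without ZT8 mouse 3 and 3 without ZT0 mouse 3. Of 71 mitochondrial ribosomal proteins 5 were higher and 1 lower (median 0.08). That is 8.45% called, under the 10.5% over all genes, and Mrpl23 had the smallest p (0.51, adjusted p = 0.00064).

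Of 28 ribosome biogenesis genes 3 were higher and 1 lower at ZT8 than at ZT0 (median 0.07). At ZT4 against ZT0 none was higher and 1 was lower, with a median of -0.25. At ZT8 against ZT4, 8 were higher and none lower (median 0.33), beside 3.14% higher and 2.45% lower over all genes. Npm1, or nucleophosmin, was 11.94 to 11.98 at ZT8 against 11.77 to 11.92 at ZT0 (0.12, adjusted p = 0.02), a call lost without ZT8 mouse 1 or ZT0 mouse 2 (adjusted p = 0.0538 and 0.0919). No member was called at ZT8 against ZT0 without ZT8 mouse 1, 2 were without ZT8 mouse 3, and 1 was without ZT8 mouse 4, ZT0 mouse 2 or ZT0 mouse 3. Of 49 splicing factors none was higher and 8 were lower at ZT4 than at ZT0, beside 6.15% and 5.37% over all genes. At ZT8 against ZT4 4 were higher and none lower. At ZT8 against ZT0 2 were higher and 4 lower (median -0.04), which is 12.24% called, near the 10.5% over all genes. Hnrnpm fell by 0.51 ± 0.11 (adjusted p = 0.00259) and Srsf10 by 0.25 (adjusted p = 0.00702), while Snrpb rose by 0.29 (adjusted p = 0.00248) and the cold-inducible Cirbp by 0.69 (adjusted p = 0.0156). Cirbp was lost without ZT8 mouse 1 or ZT0 mouse 2 (adjusted p = 0.0927 and 0.111).

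Immediate early genes are switched on within minutes of a stimulus. Of 30 tested 7 were lower and 1 higher (median -0.12), beside 4.08% lower over all genes. Nr4a2, an orphan nuclear receptor, stood at 9.71, 10.13, 9.93 and 9.95 in ZT8 mice against 10.67, 10.39, 10.30 and 10.55 in ZT0 mice (-0.55 ± 0.11, adjusted p = 0.000921), with no overlap, though 1 of its 3 further probe sets above the filter read 0.00. Nr4a3 fell by 0.44 (adjusted p = 0.00711), and Fosl2, an AP-1 subunit, by 0.22 (adjusted p = 0.0143), lost without ZT0 mouse 1 (adjusted p = 0.0852). The exception was Ccn2, a matrix-associated growth factor, at 8.705, 8.820, 8.760 and 9.001 in ZT8 mice and 7.721, 7.773, 7.617 and 8.086 in ZT0 mice (1.02 ± 0.16, adjusted p = 3.18e-05). The members called numbered 4 without ZT8 mouse 1 or 3 and 5 without ZT8 mouse 4, ZT0 mouse 1 or ZT0 mouse 2.

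Beside 6.38% higher and 4.08% lower over all genes, of 27 tested autophagy and lysosome genes 5 were lower and 1 higher (median -0.03). Ulk1, the kinase that starts autophagy, stood at 10.46, 10.43, 10.50 and 10.34 at ZT8 against 10.87, 11.01, 11.12 and 11.14 at ZT0 (-0.60 ± 0.08, adjusted p = 2.72e-06), and the mitophagy receptor Bnip3l fell by 0.40 (adjusted p = 0.00449). The members called were 3 without ZT8 mouse 1, ZT8 mouse 4 or ZT0 mouse 2, and 2 without ZT0 mouse 4. Of 20 antioxidant and NRF2 target genes 6 were higher and none lower (median 0.16). Prdx1, a peroxidase, rose by 0.38 ± 0.08 (adjusted p = 0.00117), with 10.98 to 11.26 at ZT8 and 10.64 to 10.83 at ZT0, and Gstm1, a glutathione transferase, by 0.22 ± 0.05 (adjusted p = 0.0018). Gclc and Gclm, the subunits of the enzyme that limits glutathione synthesis, rose by 0.44 (adjusted p = 0.0188) and 0.47 (adjusted p = 0.0159). Gclc was lost without ZT8 mouse 4 or ZT0 mouse 3 (adjusted p = 0.0623 and 0.0698) and Gclm without ZT0 mouse 2 (adjusted p = 0.0585), which left 3 members called.

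Of 20 p53 and DNA damage genes 4 were higher and 2 lower (median 0.06), beside 6.38% and 4.08% over all genes. Gadd45a, a growth arrest gene, stood at 11.06, 11.20, 11.00 and 10.87 in ZT8 mice against 10.43, 10.10, 10.08 and 10.43 in ZT0 mice (0.77 ± 0.09, adjusted p = 7.53e-07), and was as high at ZT4 (10.97 to 11.28). Plk2, a polo-like kinase, rose by 0.59 (adjusted p = 0.000381), and the cell death genes Pmaip1 and Bbc3 went apart, at 0.91 (adjusted p = 0.00632) and -0.64 (adjusted p = 0.000126). Pmaip1 was lost without ZT0 mouse 2 (adjusted p = 0.0633), which left 3 members called. Among 14 G1 cyclins and inhibitors 1 was higher and 4 were lower (median -0.22). Ccnd1, the cyclin that opens G1, rose by 0.83 ± 0.19 (adjusted p = 0.00283), with 10.16 to 10.87 at ZT8 and 9.58 to 9.91 at ZT0. Ccnd2, another G1 cyclin, went the other way (-0.79, adjusted p = 0.0346) and is named after its value was seen. Ccng2, a cyclin of quiescent cells, fell by 0.54 (adjusted p = 0.00902), and the retinoblastoma gene Rb1, in part under the level filter, by 0.84 (adjusted p = 0.011), lost without ZT0 mouse 4 (adjusted p = 0.059). The G1 genes called were 3 without ZT8 mouse 1 or 2 or ZT0 mouse 1 or 2, and 2 without ZT0 mouse 4. Of 22 cell cycle genes, Mcm4, a replication helicase subunit, was the only one called (-0.52, adjusted p = 0.0207), and it was lost without ZT8 mouse 3 or 4 or ZT0 mouse 1 or 4 (adjusted p = 0.0506 to 0.0841).

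Genes of stem cell identity and quiescence had a median difference of 0.02, the same as all genes. Of 33 tested, 5 were higher and 3 lower, beside 6.38% higher and 4.08% lower over all genes. Cdh15, the M-cadherin that holds the cell to its fibre, stood at 8.57, 8.55, 8.75 and 8.65 in ZT8 mice against 8.00, 8.37, 7.81 and 7.94 in ZT0 mice (0.60 ± 0.13, adjusted p = 0.00257). Met, the receptor for the activating growth factor HGF, rose by 0.67 ± 0.15 (adjusted p = 0.00235), Pdlim4 by 0.48 (adjusted p = 0.000868) and Foxo3, a factor of quiescence, by 0.38 (adjusted p = 0.000238). Pax7, the defining factor of the lineage, was 10.94 to 11.19 at ZT8 and 10.64 to 10.94 at ZT0 (0.28, adjusted p = 0.0156). Cd34 (-0.52, adjusted p = 0.00448), Gas1 (-0.42, adjusted p = 0.0367) and Fgfr1 (-0.11, adjusted p = 0.0247) were lower. Pax7, Cd34, Gas1 and Fgfr1 are named after their values were seen, to complete the list. Without ZT0 mouse 1, 5 members were called. Of 11 commitment genes only Mef2d was called (-0.29, adjusted p = 0.0123), while 1 of the 11 differences was positive (median -0.22). The mean of the commitment list was 7.66 to 7.89 in ZT8 mice and 7.60 to 8.68 in ZT0 mice. Of 23 myofibre genes only Actn3 was called (0.72, adjusted p = 0.00804).

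**Figure D4:**
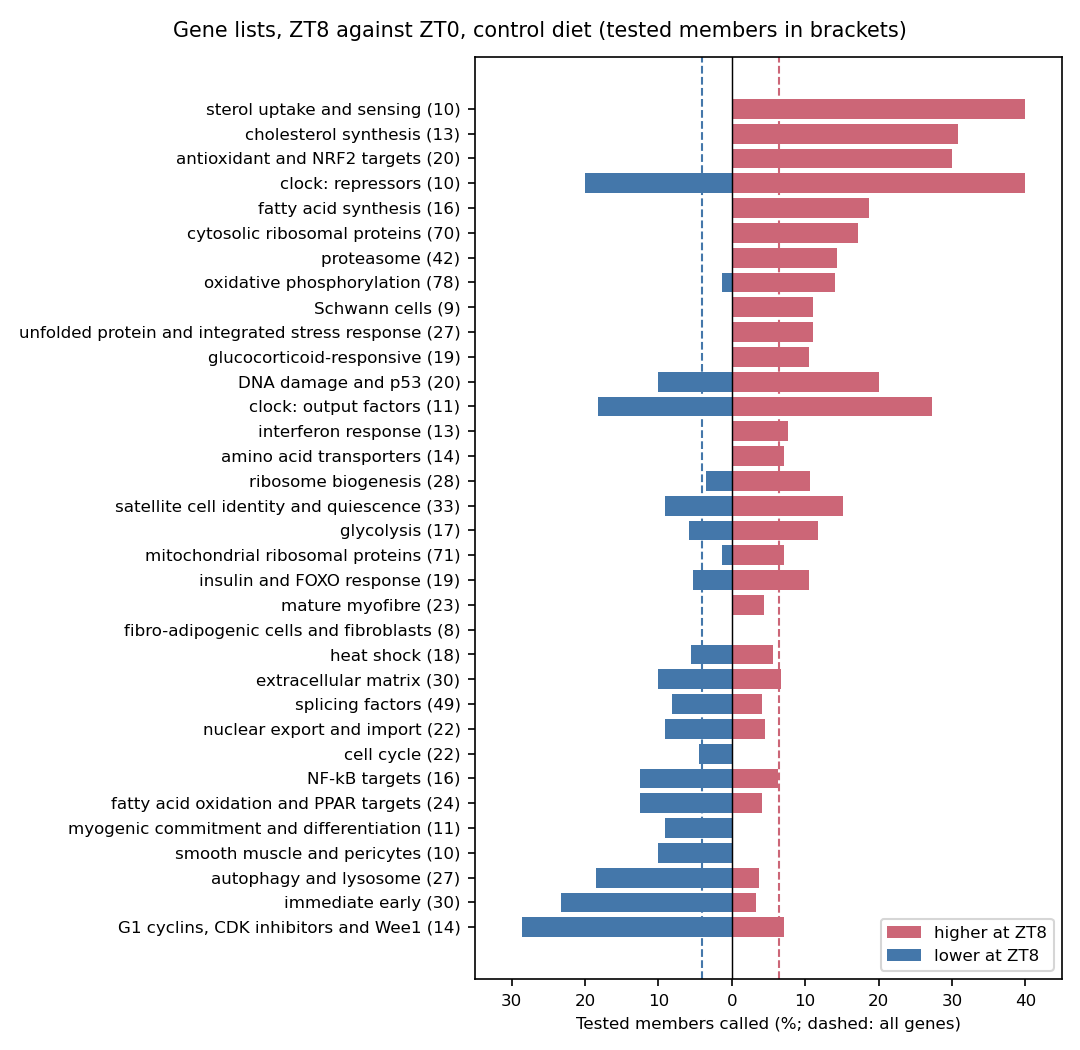
Share of the tested members of each gene list called higher (right) or lower (left) at ZT8 than at ZT0 on the control diet, in percent, with the number tested in brackets and dashed lines at the shares over all genes (6.38% and 4.08%). In sterol uptake 4 of 10 members are higher and none lower, and the G1 list has 4 of 14 members lower.

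Extracellular matrix genes were called mainly at the midpoint. At ZT8 against ZT0 2 of 30 were higher and 3 lower, with a median of -0.01. At ZT4 against ZT0 13 were higher and none lower (median 0.31), beside 6.15% higher and 5.37% lower over all genes. At ZT8 against ZT4 none was higher and 10 were lower (median -0.46), beside 3.14% higher and 2.45% lower. The mean of the list was 9.09 to 9.15 in ZT0 mice, 9.33 to 9.61 in ZT4 mice and 8.92 to 9.12 in ZT8 mice. Leaving out a mouse gave 7 to 12 members higher at ZT4 than at ZT0, the lowest counts being 7 without ZT4 mouse 4 and 8 without ZT0 mouse 1, and 8 to 10 lower at ZT8 than at ZT4. The fibro-adipogenic and fibroblast list had means of 8.41 to 8.62 at ZT0, 8.72 to 9.14 at ZT4 and 8.27 to 8.53 at ZT8. Of its 8 tested members 1 was higher at ZT4 than at ZT0, 2 were lower at ZT8 than at ZT4 and none was called at ZT8 against ZT0. Its defining receptor Pdgfra was near background throughout (4.24 to 4.57). The part of connective tissue cells in the matrix values was not tested.

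Col1a1, the main chain of type I collagen, read 9.23, 9.03, 8.55 and 9.76 at ZT0, 9.25, 9.67, 10.20 and 10.58 at ZT4 and 7.96, 7.76, 8.29 and 8.24 at ZT8. The ZT8 mice were below all others, but the scatter was wide, and the test passed at ZT8 against ZT4 (-1.87 ± 0.47, adjusted p = 0.0127) and not at ZT8 against ZT0 (-1.08 ± 0.47, adjusted p = 0.136), except with only the arrays of those groups (adjusted p = 0.0185). Fn1, or fibronectin, had a single ZT4 mouse at 10.47 and the others at 8.06 to 8.87. Lama2, the laminin chain of the muscle basement membrane, kept a part of its midpoint rise. It stood at 10.09 to 10.20 at ZT8 against 9.68 to 10.00 at ZT0 (0.33 ± 0.07, adjusted p = 0.00269), after 10.32 to 10.52 at ZT4. Bgn, a small proteoglycan, rose by 0.53 (adjusted p = 0.00687; 0.0501 without ZT0 mouse 2), and Sparc, a collagen chaperone, fell by 0.23 (adjusted p = 0.00804; 0.0503 without ZT0 mouse 2). Of the 30 genes 2 were called at ZT8 against ZT0 without that mouse.

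**Figure D5:**
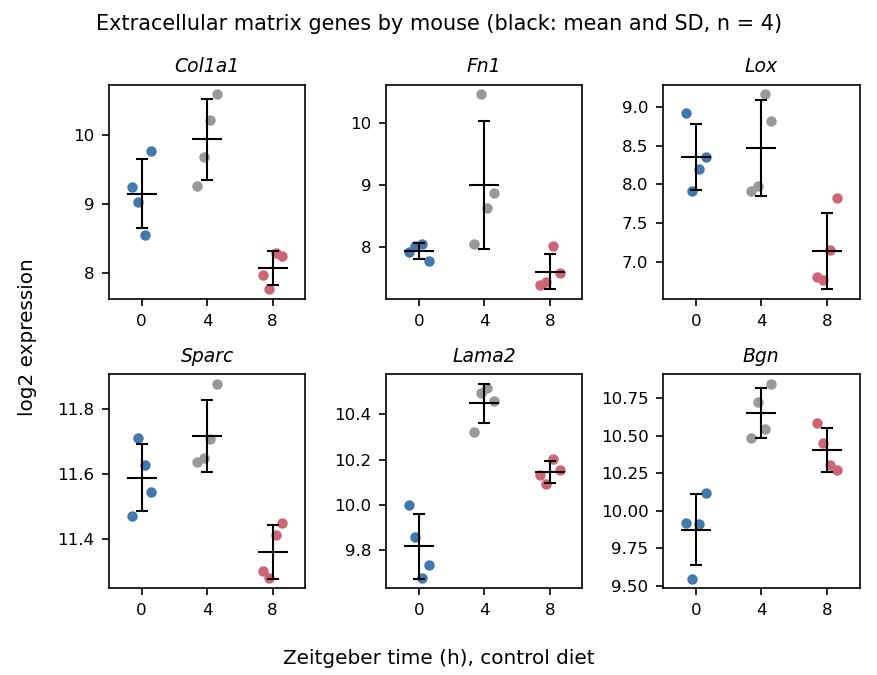
Log2 expression of 6 extracellular matrix genes in each control-diet mouse against zeitgeber time in hours, with the mean and SD of 4 mice in black. The ZT4 mice are highest on average in all 6, Lox and Sparc are lower in the ZT8 mice than in the ZT0 mice, and Lama2 and Bgn are higher.

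The lists of other cell types were short, and over all genes 10.5% were called at ZT8 against ZT0. Of the tested endothelial (6), immune (6), fibro-adipogenic (8) and erythroid (3) genes none was called at ZT8 against ZT0. Of the erythroid genes, Hba-a1 differed by 1.35, Hba-a2 by -0.06 and Klf1 by -0.70. Dimmer Hba-a1 probe sets under the filter gave 0.62 and 2.97. None of the 6 tested members of the immune list had a difference above 0 (median -0.17). Igha, which rose, is not on that list. The part of blood and immune cells in these values was not tested. Of 9 Schwann cell genes Ngfr was higher (0.54, adjusted p = 0.0238), of 10 smooth muscle and pericyte genes Mcam was lower (-0.68, adjusted p = 0.00926), and of 3 adipocyte genes Lipe was lower (-0.32, adjusted p = 0.0478). Ngfr lost its call without ZT8 mouse 3 or 4 or ZT0 mouse 1, 2 or 4 (adjusted p = 0.05 to 0.127), and Lipe without any of 6 mice, namely ZT8 mice 1, 3 and 4 and ZT0 mice 2, 3 and 4 (adjusted p = 0.0838 to 0.184). The Schwann list had means of 7.87 to 8.05 in ZT8 mice and 7.74 to 7.83 in ZT0 mice. The smooth muscle list had means of 8.571 to 9.024 in ZT8 mice and 8.687 to 8.996 in ZT0 mice. Of 19 glucocorticoid-responsive genes, Zbtb16 and Cebpd (0.28, adjusted p = 0.0222) were higher, and Cebpd was lost without ZT8 mouse 4 or ZT0 mouse 3 (adjusted p = 0.114 and 0.123). That is 10.53% called, near the 10.5% over all genes. Fkbp5, a direct target of the hormone's receptor, had 7.43 to 7.66 at ZT8 and 6.60 to 7.30 at ZT0 (0.53 ± 0.18, adjusted p = 0.0506).

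The same interval on the high-fat diet, in other mice collected on the same days, had 725 genes called (7.07%), 478 (4.66%) higher and 247 (2.41%) lower at ZT8. Both diets called 225 genes, which is 21% of the control-diet calls and 31% of the high-fat calls, and 224 of them went the same way. Of the 1073 control-diet calls 83.8% had the same sign on the high-fat diet, beside 62.7% of all genes. Across the 10258 genes the differences of the diets correlated at r = 0.436, where the diets share collection days but no mice. Of the 26 clock genes 11 were called on the high-fat diet, 10 of them on both diets, and 23 had the same sign on both. Npas2 differed by -0.77, Dbp by 1.39, Per3 by 1.92, Nr1d2 by 1.11 and Cry1 by -0.63 there. The smallest adjusted p of a difference between diets in any clock gene was 0.38, that of Npas2 (-0.29 ± 0.14).

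A test of the difference of the change between diets called 32 genes (0.312%), 9 (0.0877%) with the larger value on the control diet and 23 (0.224%) with the smaller. Mice of both diets were collected on the same day at each time. Of the 32 genes, 21 were among the 1073 control-diet calls, and 20 of the 21 had the opposite sign on the high-fat diet. Picking genes by a called difference between diets favours opposite signs, so that count is not a separate result. Stard4 rose on the control diet by 1.25, while on the high-fat diet it stood at 8.36, 8.08, 7.83 and 8.72 at ZT8 and 8.48, 8.39, 8.26 and 8.90 at ZT0 (-0.26), so that the changes differed by 1.51 ± 0.31 (adjusted p = 0.0227). Cpt1a fell on the control diet by 1.13 and gave 8.98, 8.76, 8.58 and 8.92 at ZT8 against 9.01, 8.83, 9.15 and 8.89 at ZT0 on the high-fat diet (-0.16; difference -0.97 ± 0.20, adjusted p = 0.0227). The cholesterol synthesis list, where the high-fat diet gave 0 of 13 higher and 1 lower (median 0.02), had no member whose change differed between diets by the test, Idi1 coming to 1.14 ± 0.33 (adjusted p = 0.111).

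The 3 genes with the smallest p of this test fell on the control diet. Nr4a2 read 10.06, 10.05, 10.07 and 9.99 at ZT8 and 9.65, 9.67, 9.86 and 9.80 at ZT0 on the high-fat diet, every ZT8 mouse above every ZT0 mouse (0.30, adjusted p = 0.0834), and its change differed by -0.85 ± 0.15 (adjusted p = 0.0148). The 3 further Nr4a2 probe sets above the filter did not rise on the high-fat diet (-0.06, -0.21 and -0.005). Kpna6, an importin that carries proteins into the nucleus, fell by 0.64 on the control diet (adjusted p = 0.000361) and gave 0.25 on the high-fat diet (difference -0.88 ± 0.17, adjusted p = 0.0148). Mypop, a MYB-related repressor, fell by 0.58 (adjusted p = 0.00135) and gave 0.33 there (difference -0.91 ± 0.17, adjusted p = 0.0148). Yae1d1 rose by 0.34 and gave -0.11 (difference 0.45, adjusted p = 0.0227). Dnajc7, a co-chaperone, rose by 0.49 on the high-fat diet (adjusted p = 0.00517) and gave -0.31 on the control diet (adjusted p = 0.0748, passing in 3 of 18 alternative settings; difference -0.80, adjusted p = 0.0227). A limma fit on the 16 arrays of these 4 groups alone called 0 of the differences, with 1278 at an unadjusted p under 0.05. The 32 calls became 10, 13 and 17 without control ZT8 mouse 1, 2 or 3, 14 without control ZT0 mouse 2, 9 without high-fat ZT8 mouse 3 or ZT0 mouse 1, and 19 without high-fat ZT0 mouse 4.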

How the data were processed

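Muscle stem cell RNA of 47 mice in 12 groups (2 diets and 6 times, 4 mice each, 3 in high-fat ZT16) was measured on 1 array per mouse, from amplified cDNA of 25 ng of RNA per the labels' protocols. The authors deposited log2 expression values per probe set, made with RMA (robust multi-array averaging) per the submitters' processing notes, its version not given in the sources used here. RMA normalizes by quantiles, which sets each array against the same distribution, and it compresses differences near background. Arrays have no read depth, and their number limits the precision.

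Of 45141 probe sets, 104 controls, 551 with several symbols and 15692 with none were left out. Symbols were updated through the gene identifier (28689 matched RefSeq's GRCm38.p6 table), and the brightest probe set of each of 17097 genes was kept. Genes with a mean under the 40th percentile (5.80) were left out, which left 10258, of which 5496 had further probe sets. All adjusted p-values are from limma 3.58.1 in R 4.3.3 (lmFit and eBayes with trend, 12 group means over all 47 arrays, two-sided, Benjamini-Hochberg, threshold 0.05), tested on simulated data. The named genes are all tested clock genes, the 12 largest called increases and decreases without overlap, the 3 largest called in each direction of either step, the 5 smallest p of the diet difference, and up to 4 members with the smallest p of each other list. Others are named where a short count calls for it. The members and lists were chosen with earlier results of these data known. Promoter sequences are RefSeq's. Replicate numbers do not mark shared animals, and deviations of same-numbered ZT8 and ZT0 mice correlated at 0.0306, -0.13, 0.0461 and -0.327, so no block was used. Alternatives were other sets of arrays, filters, probe set rules, scaling, weights, the block and leaving out each mouse. High-fat mice at other times entered the shared estimate of the spread only.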

Additional observations from a re-analysis of the deposited data

Results flagged for a closer look

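Among 438 combinations of a named gene and a time, 28 (6.39%) had 1 of 4 mice far from the other 3, where chance gives about 5%. In ZT8 mice these were Csnk1d (12.36), Pdk4 (10.27), Gclc (9.11) and Pdlim4 (10.05) in mouse 4, Timeless (6.391) and Kpna3 (7.361) in mouse 2, Tpi1 (9.371) in mouse 3, and Fosl2 (11.16), Pik3r1 (10.13) and Slc43a2 (8.708) in mouse 1. In ZT4 mice they were Thbs4 (6.121), Ppp3r1 (5.575) and Snrpb (10.86) in mouse 1, Slc43a2 (8.748) in mouse 2, Rpl11 (11.42) and Ccnd1 (9.89) in mouse 3, and Atp5mpl (9.878) in mouse 4. In ZT0 mice they were Aldoa (10.47) in mouse 1, Bhlhe40 (9.66), 4632427E13Rik (4.674), Aplp1 (7.827) and Mrpl23 (9.225) in mouse 2, Akr1c14 (7.858) and Pik3r1 (10.07) in mouse 3, and Clock (8.328), Schip1 (7.318), Atp5mpl (9.237) and Srsf10 (11.11) in mouse 4.

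The change from ZT0 to ZT8 differed between the diets, control minus high-fat, for Stard4 (1.512), Cpt1a (-0.9734), Nr4a2 (-0.8469), Mypop (-0.9118), Kpna6 (-0.8835), Yae1d1 (0.4525) and Dnajc7 (-0.7975), by limma's test of that difference.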

How the results depend on the processing

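For ZT8 against ZT0 the 1073 genes called became 2025 with array weights and 364 with a 1.5-fold minimum, and 704 (without ZT8 mouse 3) to 931 when a mouse was left out. For ZT4 against ZT0 (1182) the counts were 680 with only the arrays compared, 379 with the fold minimum and 820 to 1075 without a mouse. For ZT8 against ZT4 (573) they were 278, 1198 with array weights, 196 with the fold minimum and 334 to 591 without a mouse (336 without ZT8 mouse 3, 340 and 334 without ZT4 mice 3 and 4). On the high-fat diet (725) they were 285, 261 with the fold minimum and 479 (without ZT0 mouse 4) to 679. For the difference between diets (32) they were 0 with only the arrays compared, 101 with array weights, 18 with the replicate block, 24 with the fold minimum and 9 to 39 without a mouse. The replicate number as a block gave 984, 1103, 532 and 659 calls in the first 4 comparisons, and the numbers share no animal. Cyclic loess moved the split from 654 higher and 419 lower (61% higher) to 571 and 510 (52.8% higher). No called gene named by the rules above reversed under any of these settings. Gene-level reruns were not made for Pax7, Cd34, Gas1, Fgfr1 and Ccnd2. Counts per gene list were rerun under the same settings after the data were seen. Of 61 called genes named by those rules with a further probe set above the filter, 56 had all of them in the same direction. Rora, Nr4a2, Angptl4, Pes1 and Bysl did not. Dim signal limits what can be seen, since differences near background are compressed.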
